A study of Homo sapiens with 6 samples.

Results

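SR proteins, hnRNPs and the kinases that phosphorylate SR proteins were followed in HEK293T cells with and without queuine. The genes were taken by symbol: protein-coding genes named SRSF with a number (12 SR proteins), genes whose name begins with HNRNP (27 hnRNPs), 5 SR-related genes (TRA2A, TRA2B, SON, SRRM1 and SRRM2) and 6 kinases (CLK1 to CLK4, SRPK1 and SRPK2), 50 of the 63086 genes in the count table. Supplemented cells (100Q) were depleted cells given queuine, and depleted cells (0Q) were kept in medium with dialyzed serum, which both groups share as their starting point. The queuine dose is stated both as 100 nM (sample characteristics) and as 1 µM over 24 hours (treatment protocol), and the files do not settle which was used. Total RNA was taken up in TRIzol, and the library protocol is named as MSR-seq, whereas the sample titles read mRNA-seq. Each group had 3 libraries. The labels do not tell separate cultures from repeat preparations. Every p-value and interval here therefore reflects library-to-library spread that may be technical.

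HEK293T is an established line from human embryonic kidney, so all values come from a single genetic background. Of its fixed markers, VIM lay at 628 to 696 TPM (a count per transcript length, scaled to the library) and NEFM at 87.3 to 112, while PAX2 (0.784 to 3.60) and LHX1 (1.42 to 4.60) were low. The leukocyte genes PTPRC and CD3E and the erythroid HBB had 0 counts in every library. Of the fibroblast genes, COL1A1 had 126 to 336 counts and COL1A2 had 0 to 3. Libraries held 4023956 to 11398835 estimated counts in 100Q and 7264638 to 8035251 in 0Q, and the 50 genes took 1.65% to 1.74% of them. In a principal component analysis 100Q replicate 2 lay apart from the other libraries on the first component.

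Queuine is a base that mammalian cells take up from food or medium and place in the anticodon of tRNAs for Tyr, His, Asn and Asp, where it becomes queuosine. These tRNAs read codons that end in C or U. SR proteins bind exonic enhancers through RNA recognition motifs and recruit the spliceosome through a domain rich in arginine and serine, which the CLK and SRPK kinases phosphorylate. The hnRNPs coat nascent transcripts and often act against SR proteins at splice sites, and many SR and hnRNP genes limit their own expression by splicing in exons that send the message to decay.

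The coding sequences of SR proteins show the arginine-serine repeats and the few queuosine-decoded codons within them. The stretches below hold 40 codons each, read 5′ to 3′ on the coding strand from GENCODE release 44 (GRCh38), with queuosine-decoded codons (Tyr, His, Asn and Asp) in capitals. For SRSF1 (codons 204 to 243, minus strand, chr17:58005424-58005543) and SRSF12 (codons 149 to 188, minus strand, chr6:89098800-89098919), the stretch is the one with the most neighbouring arginine and serine codons.
SRSF1: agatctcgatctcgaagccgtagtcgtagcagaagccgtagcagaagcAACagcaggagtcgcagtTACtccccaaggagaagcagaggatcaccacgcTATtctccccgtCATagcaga
SRSF12: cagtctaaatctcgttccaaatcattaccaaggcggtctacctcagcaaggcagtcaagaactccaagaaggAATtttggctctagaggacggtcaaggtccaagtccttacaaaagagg

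The SRSF1 stretch held 22 arginine-serine codon pairs and 4 queuosine-decoded codons, and the SRSF12 stretch held 8 pairs and 1 such codon. SRSF1 is the founding member of the family, and SRSF12 had the most negative fold change of it. HNRNPA1L2, an HNRNPA1-like gene on chromosome 13, had 98.4% identity to HNRNPA1 over 963 aligned coding bases. HNRNPA1L3, on chromosome 16, had 99.4% identity to HNRNPA1.

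Over whole coding sequences, the median share of codons for the 4 amino acids was 13.5% in the 12 SR proteins, 9.23% in the 5 SR-related genes, 17.2% in the 23 tested hnRNPs and 20.01% in the 6 kinases, against 13.8% over 12726 tested protein-coding genes. All 6 kinases and 22 of 23 hnRNPs lay above that median, as did 6 of 12 SR proteins. CLK4 (22.5%) and CLK1 (22.3%) had the highest shares of the 50 genes, and SRRM2, a large SR-related protein of nuclear speckles, had the lowest (5.78%). Tyrosine codons took a median of 5.11% in hnRNPs, against 2.62% over the tested protein-coding genes. Asparagine (4.507% against 3.425%) and aspartate (5.291% against 4.804%) were also higher in hnRNPs, and histidine was lower (1.905% against 2.443%). In the kinases the histidine median was 5.666%. Of the codons for the 4 amino acids, the share ending in C had a median of 39.8% over the 46 tested genes, against 55.6% over the tested protein-coding genes and 51.7% over genes averaging 100 CPM or more (CPM is the count relative to the library total scaled by TMM). It was below the median of the tested protein-coding genes in 37 of the 46. SRSF2 (92.0%) and SRSF8 (89.2%), which is closely related to it, stood at the other end, and HNRNPH3 (21.6%) and HNRNPA3 (22.7%) were lowest. These genes include close paralogs, so they are not independent points and no test was made.

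**Figure D1:**
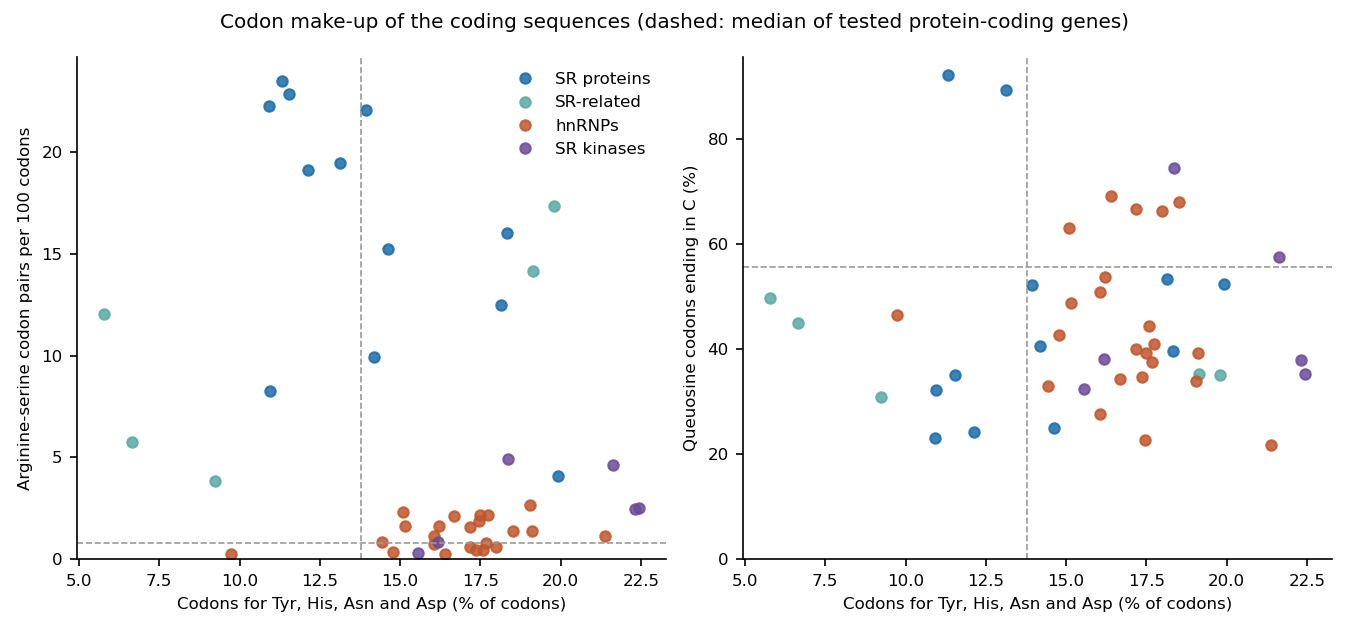
Each point is a tested gene. The horizontal axes give the percentage of codons that are queuosine-decoded (%), and the vertical axes give arginine-serine codon pairs per 100 codons (left) and the share of those queuosine-decoded codons that end in C (%, right). On the left panel SR proteins (median 17.6 pairs per 100 codons) sit far above hnRNPs (1.16). The hnRNP median is itself above the dashed line, the median of 0.768 over tested protein-coding genes. On the right, 37 of 46 genes lie under the dashed line of 55.6%.

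Levels between genes were compared per length, as TPM from the counts and the length of the canonical GENCODE transcript. The hnRNPs together held 6247 ± 197 TPM in 100Q and 6064 ± 14.1 TPM in 0Q (SD, n = 3 each), which was 65.9% of the summed level of all 50 genes in either group. SR proteins held 2200 ± 73.9 TPM in 100Q and 2148 ± 44.3 TPM in 0Q, SR-related genes 641 ± 50.6 TPM in 100Q and 614 ± 28.8 TPM in 0Q, and kinases 387 ± 29.8 TPM in 100Q and 379 ± 9.12 TPM in 0Q. In the SR proteins the libraries of the groups overlapped, with 2258, 2117 and 2226 TPM in 100Q and 2105, 2145 and 2194 TPM in 0Q. They also overlapped in the hnRNPs, with 6443, 6246 and 6050 TPM in 100Q and 6079, 6061 and 6051 TPM in 0Q. Summed over the 50 genes the groups lay apart, with 9751, 9308 and 9366 TPM in 100Q and 9144, 9201 and 9268 TPM in 0Q. As a share of counts the 50 genes overlapped, with 1.738%, 1.69% and 1.647% in 100Q and 1.656%, 1.65% and 1.657% in 0Q. These sums were not tested.

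HNRNPA1, which shuttles between nucleus and cytoplasm and represses exon inclusion, had the highest level of the 50 genes, with 960 ± 68.7 TPM in 100Q and 873 ± 31.6 TPM in 0Q. It exceeded HNRNPA2B1, an abundant relative, in 6 of 6 libraries, by 0.47 ± 0.071 on the log2 scale (SD). HNRNPA2B1, HNRNPH1 and HNRNPK came next. HNRNPA2B1 exceeded HNRNPH1 in 4 of 6 libraries, and HNRNPH1 exceeded HNRNPK in 4 of 6, so these neighbours changed places between libraries. HNRNPC and HNRNPL followed, and likewise each was ahead in some libraries (HNRNPC in 4 of 6). These 5 hnRNPs from HNRNPA1 to HNRNPC held 53.1% of the hnRNP level. Among SR proteins SRSF9 (369 ± 38.1 TPM in 100Q and 343 ± 23.7 TPM in 0Q), SRSF5 (327 ± 32.6 TPM in 100Q and 332 ± 10.1 TPM in 0Q) and SRSF2 (330 ± 19.7 TPM in 100Q and 308 ± 15.5 TPM in 0Q) led and held 46.2% of the family. SRSF12 was the lowest at 7.86 ± 1.02 TPM in 100Q and 10.2 ± 1.23 TPM in 0Q. These ranks depend on the transcript length used, which was 1152 bases for SRSF9 and 5343 for SRSF1. HNRNPCL2 and HNRNPCL3 had 0 counts in all libraries. HNRNPCL1 had 1 count and HNRNPCL4 had 3 counts, all in 100Q replicate 1, so these 4 HNRNPC-like genes were not tested and the fold changes below cover 46 of the 50.

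**Figure D2:**
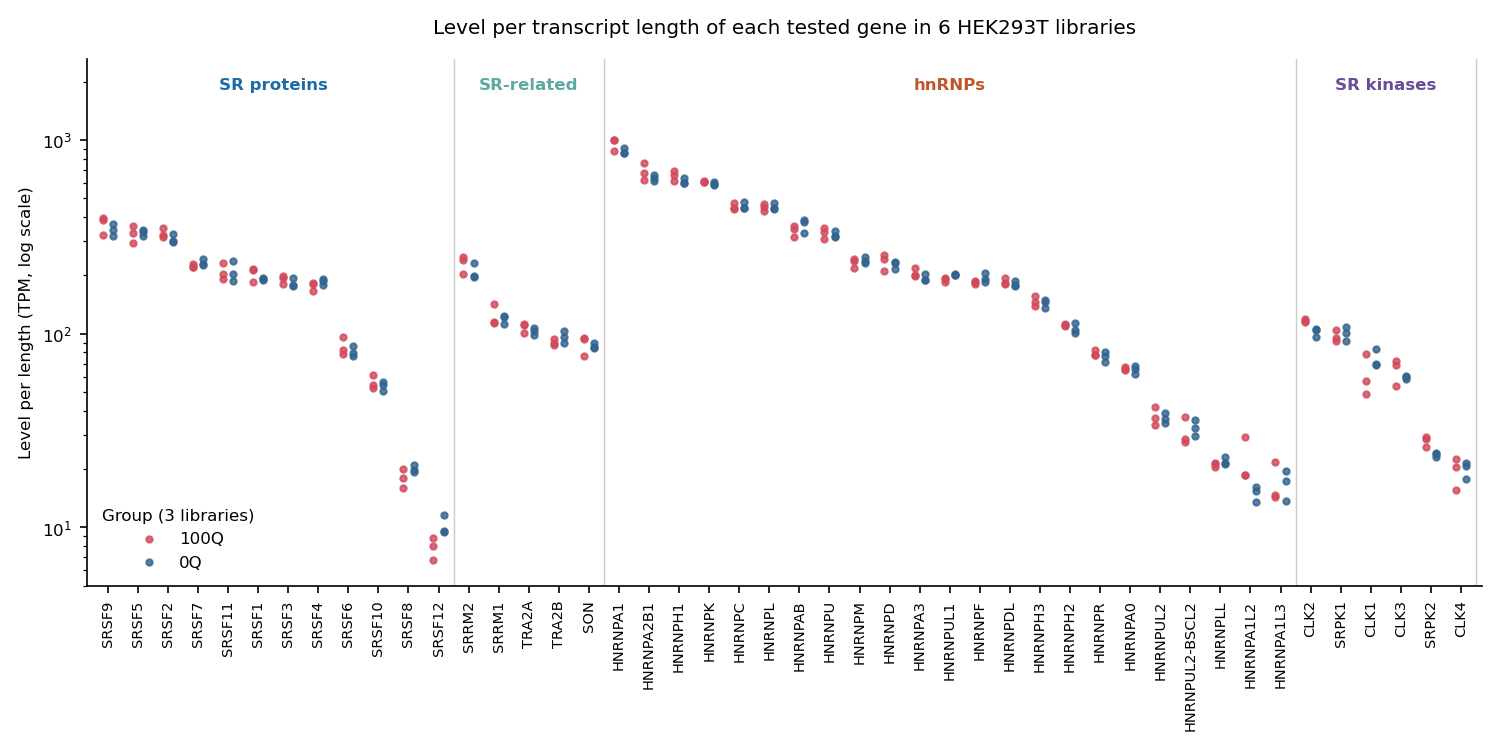
Points give the level per transcript length (TPM, log scale) of the 46 tested genes in each library, 100Q in red to the left of 0Q in blue, ordered within families by mean level. HNRNPA1 lies highest, near 960 TPM in 100Q and 873 TPM in 0Q, and the groups lie on top of each other for most genes.

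The main comparison asked which of these genes differed between supplemented and depleted cells. None of the 46 passed the adjusted p threshold of 0.05 (edgeR quasi-likelihood, Benjamini-Hochberg over all tested genes; p of 0.987 to 1 after adjustment), beside 2 of 14905 tested genes, 0.0134%. None of the 46 passed when any of the 6 libraries was left out, and none passed with DESeq2 or limma-voom, which called 11 genes (0.0738%) and 1 gene (0.00671%) in all. At an unadjusted p under 0.05 edgeR gave 2 of the 46, SRSF12 with a negative and HNRNPA1L2 with a positive log2 fold change. Of all tested genes 704 reached that level with edgeR (4.72%, with 2.49% higher and 2.23% lower in 100Q). DESeq2 gave 0 of the 46 at that level. With limma-voom there were 2 of the 46, beside 805 of all 14905 tested genes. The 2 were SRSF12 (limma-voom unadjusted p of 0.0333) and CLK1 (0.0233), whereas HNRNPA1L2 had 0.0905. Log2 fold changes, 100Q over 0Q, were above 0 for 21 genes and below 0 for 25, with 49.4% of all tested genes above 0. The median was -0.0051 over the 46, -0.0023 over SR proteins, 0.012 over SR-related genes, -0.0054 over hnRNPs and 0.012 over kinases, beside -0.0027 over all tested genes. The median size of the change without its sign was 0.065 over the 46 and 0.062 over genes averaging 100 CPM or more.

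The intervals show how large a change these libraries leave possible. They rest on the spread between libraries, which may be technical, and so may be too narrow for separate cultures. The 95% interval of the fold change lay inside 1.5-fold in either direction for 43 of the 46 genes (58.2% of all tested genes) and inside 2-fold for 45 (75.9%). All 35 averaging 100 CPM or more lay inside 1.5-fold, as did 99.7% of the 1994 tested genes at that level, and none of the 35 intervals reached past 1.27-fold. The 3 genes whose interval reached past 1.5-fold were SRSF12, HNRNPA1L2 and CLK1. SRSF12 and HNRNPA1L2 are among the lowest of the tested genes by CPM, and CLK1 varied most between its 100Q libraries among the kinases.

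**Figure D3:**
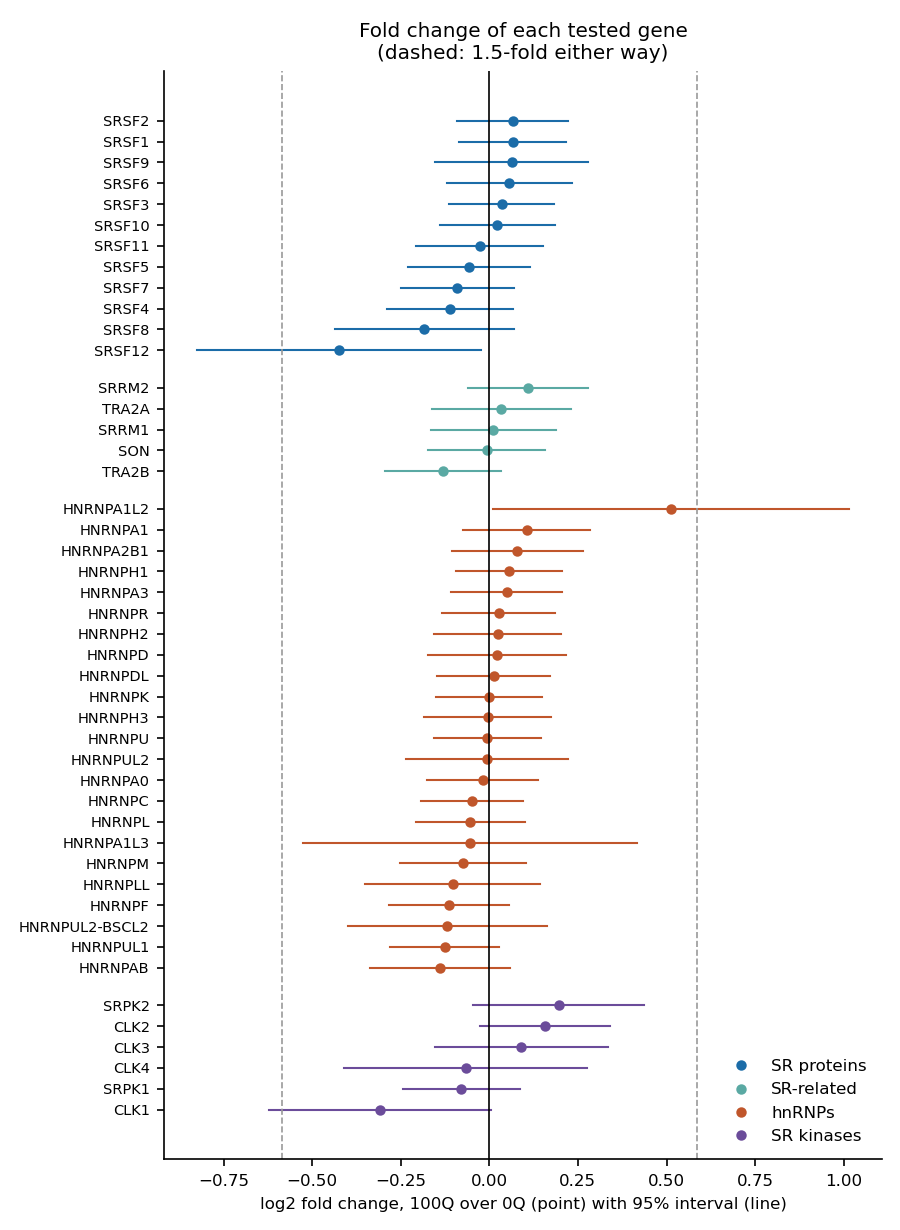
Log2 fold change of each tested gene, 100Q over 0Q, with its 95% interval, by family; dashed lines mark 1.5-fold either way. Most points lie within 0.15 of 0, and SRSF12, HNRNPA1L2 and CLK1 are the 3 intervals that cross a dashed line.

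Among SR proteins, SRSF12, which is close to SRSF10 and is known to oppose other SR proteins in splicing assays, had the most negative value. It had 12.7, 17.1 and 14.4 CPM in 100Q, against 18.4, 22.4 and 18.1 CPM in 0Q. Each 100Q library lay below each 0Q library. The fitted change on the log2 scale came to -0.42 ± 0.19 (SE), with a 95% interval of -0.83 to -0.022. With edgeR's quasi-likelihood test the unadjusted p was 0.0400 and the Benjamini-Hochberg adjusted p 0.987. On leaving out each library in turn the value ran between -0.53 (without 100Q replicate 2) and -0.32 (without 0Q replicate 2). SRSF12 (ENSG00000154548) is annotated on chromosome 6, 89095959 to 89118071.

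SRSF8, an intron-poor relative of SRSF2, had 40.4, 37.4 and 43.1 CPM in 100Q and 46.5, 44.4 and 47.3 CPM in 0Q. The groups did not overlap, and the log2 fold change was -0.18 (95% interval -0.44 to 0.069). SRSF4, a large SR protein with a long arginine-serine domain, had 221, 226 and 190 CPM in 100Q and 233, 221 and 231 CPM in 0Q, and the groups overlapped. SRSF1, the founding SR protein, had 600.0, 537 and 573 CPM in 100Q and 547, 545 and 542 CPM in 0Q, a log2 fold change of 0.066 (-0.086 to 0.22). The 100Q libraries lay on both sides of the narrow 0Q range of SRSF1. SRSF2 had 321, 322 and 332 CPM in 100Q and 306, 329 and 296 CPM in 0Q, and SRSF6 had 179, 195 and 210 CPM in 100Q and 182, 185 and 196 CPM in 0Q. For both genes the groups overlapped. The most abundant SR proteins per length also overlapped, SRSF9 with 237, 242 and 187 CPM in 100Q and 230.2, 197 and 207 CPM in 0Q, and SRSF5 with 281, 238 and 247 CPM in 100Q and 262, 273 and 261 CPM in 0Q. SRSF3, SRSF5, SRSF7, SRSF9, SRSF10 and SRSF11 had log2 fold changes of -0.090 (SRSF7) to 0.063 (SRSF9), with overlapping groups.

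The SR-related genes split around 0. TRA2B, the transformer-2 homologue that activates exons with GAA-rich enhancers, had 197, 197 and 195 CPM in 100Q and 203, 216 and 226 CPM in 0Q. Its 100Q libraries were nearly alike and all lay below 0Q, with a log2 fold change of -0.13 (95% interval -0.29 to 0.033). TRA2A, its paralog, had 94.3, 107 and 100.4 CPM in 100Q and 104, 98.5 and 92.1 CPM in 0Q, with overlap. The level of TRA2A relative to TRA2B, per length, was 1.201 ± 0.076 in 100Q and 1.08 ± 0.12 in 0Q (SD, n = 3 each), and these ratios overlapped as well. SRRM2 had 1132, 995 and 1127 CPM in 100Q and 965, 960.0 and 1094 CPM in 0Q, a log2 fold change of 0.11 (-0.060 to 0.28). Its 0Q replicate 3 lay within the range of 100Q. SRRM1, a coactivator of exonic enhancers, had 226, 230.0 and 264 CPM in 100Q and 229, 248 and 239 CPM in 0Q. SON, a scaffold of nuclear speckles, had 412, 350 and 396 CPM in 100Q and 386, 384 and 395 CPM in 0Q. Both overlapped, with log2 fold changes of 0.012 (-0.16 to 0.19) and -0.0077 (-0.17 to 0.16).

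Among the kinases, CLK1, a nuclear kinase that releases SR proteins from speckles, had the most negative value. It had 75.7, 48.7 and 52.5 CPM in 100Q and 69.0, 82.5 and 67.1 CPM in 0Q. Replicates 2 and 3 of 100Q lay below all of 0Q, whereas 100Q replicate 1 lay within the 0Q range. The fitted change was -0.31 ± 0.15 on the log2 scale (SE), with an interval of -0.62 to 0.0058. With the same edgeR test the unadjusted p was 0.0538 and the adjusted p 0.987. Omitting 100Q replicate 1 gave -0.52, whereas omitting 100Q replicate 2, 100Q replicate 3 or 0Q replicate 2 gave -0.21, -0.22 and -0.21. Much of the CLK1 RNA of cultured cells is known to keep introns and stay in the nucleus, and counts per gene do not separate it from the spliced message.

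CLK2 had 131, 134 and 128 CPM in 100Q and 124, 120.0 and 108 CPM in 0Q, with no overlap and a log2 fold change of 0.16 (95% interval -0.027 to 0.34). SRPK2, one of the cytoplasmic kinases that load phosphate on SR proteins for nuclear import, had 50.1, 58.3 and 52.5 CPM in 100Q and 47.9, 45.7 and 46.5 CPM in 0Q. Here too the groups did not overlap (0.20, -0.045 to 0.44). SRPK1 had 218, 215 and 226 CPM in 100Q and 216, 234 and 245 CPM in 0Q, with a log2 fold change of -0.080. The ratio of SRPK2 to SRPK1, per length, was 0.272, 0.320 and 0.275 in 100Q and 0.261, 0.230 and 0.224 in 0Q. CLK3 had 69.9, 54.0 and 63.7 CPM in 100Q and 61.0, 59.2 and 56.7 CPM in 0Q, and CLK4 had 29.6, 21.1 and 25.6 CPM in 100Q and 28.2, 23.9 and 28.3 CPM in 0Q. They had log2 fold changes of 0.090 (-0.15 to 0.33) and -0.067 (-0.41 to 0.28), with overlapping groups. The pairs and ratios given were picked with the values known and were not tested.

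**Figure D4:**
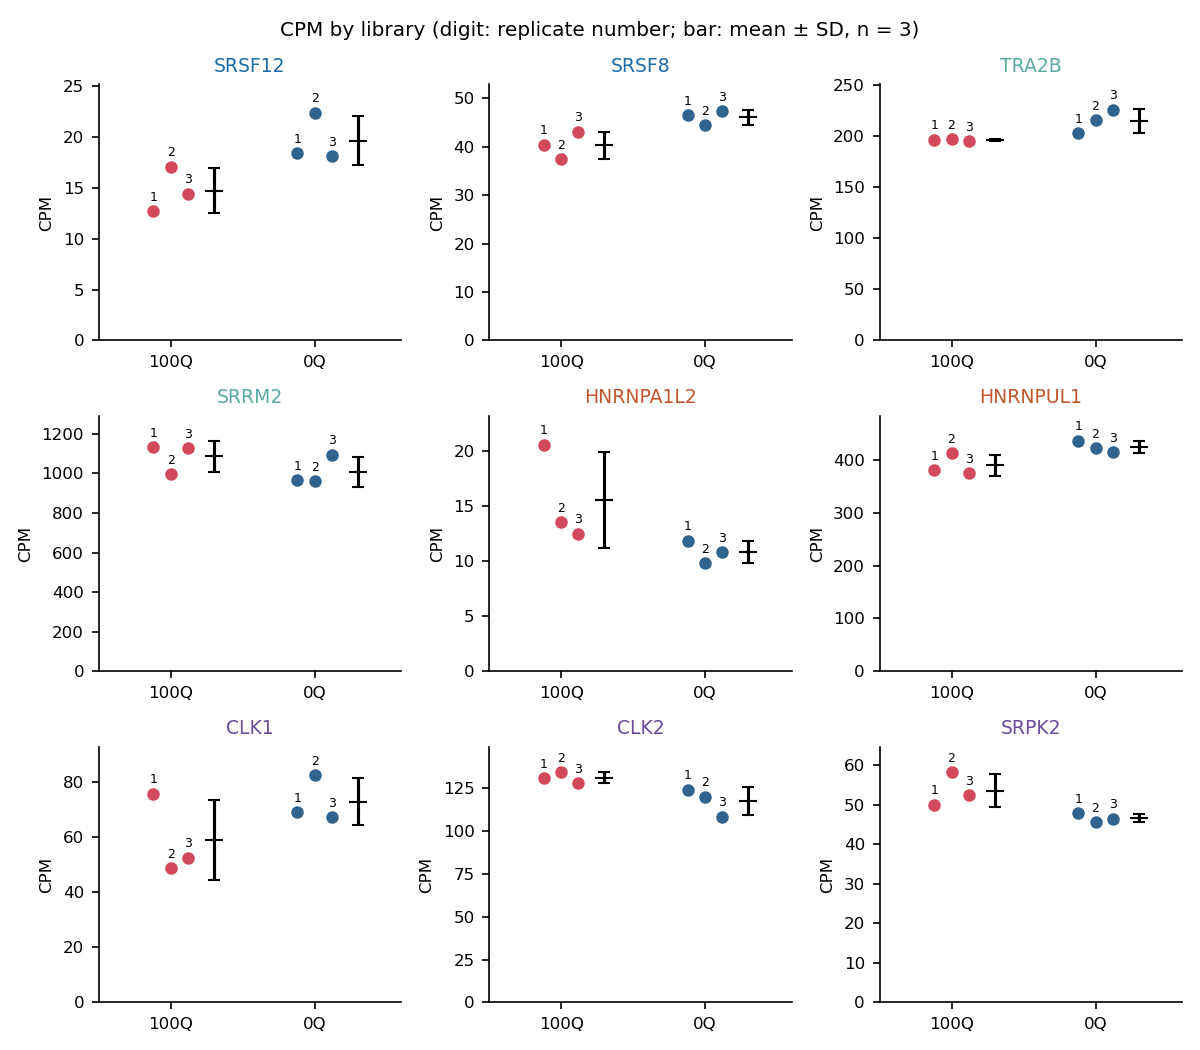
CPM in each library for 9 genes, 100Q left of 0Q, with digits for replicate numbers and bars for mean ± SD (n = 3). The groups lie apart for SRSF12, SRSF8, TRA2B, HNRNPA1L2, HNRNPUL1, CLK2 and SRPK2 and overlap for SRRM2 and CLK1; none passed the threshold.

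Among hnRNPs the single positive value with an unadjusted p under 0.05 was HNRNPA1L2. It had 20.6, 13.6 and 12.5 CPM in 100Q and 11.9, 9.81 and 10.8 CPM in 0Q. The 100Q libraries lay above those of 0Q, with 100Q replicate 1 well above the rest. The fitted change was 0.51 ± 0.24 on the log2 scale (SE), and it became 0.26 when 100Q replicate 1 was omitted and 0.67 when 100Q replicate 3 was. With edgeR the unadjusted p was 0.0463 and the adjusted p 0.987. Its counts were fractional in all 6 libraries and came to 0.820% of the HNRNPA1 counts in 100Q and 0.618% in 0Q. With the near-identity of the coding sequences given above, they are uncertain. HNRNPA1L3 had 14.4, 22.6 and 14.2 CPM in 100Q and 18.1, 20.1 and 13.9 CPM in 0Q, with overlap and no such difference in mean (-0.055, -0.53 to 0.42).

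HNRNPA1 itself had 1955, 2037 and 1647 CPM in 100Q and 1854, 1714 and 1672 CPM in 0Q. Replicates 1 and 2 of 100Q were the highest of the 6 libraries and 100Q replicate 3 the lowest. HNRNPA2B1, a relative with a similar glycine-rich tail, had 1444, 1334 and 1130 CPM in 100Q and 1262, 1273 and 1161 CPM in 0Q. Here too 100Q replicates 1 and 2 were the highest libraries and 100Q replicate 3 the lowest. Log2 fold changes were 0.10 (95% interval -0.074 to 0.28) and 0.079 (-0.11 to 0.27). For HNRNPA1, omitting 100Q replicate 3 gave 0.19 and omitting 100Q replicate 2 gave 0.042. For HNRNPA2B1, omitting 100Q replicate 3 gave 0.17 and omitting 100Q replicate 1 gave -0.0032. Among hnRNPs with a negative value, HNRNPUL1, HNRNPAB and HNRNPF had the smallest p. HNRNPUL1, an hnRNP U-like protein, had 381, 412 and 375 CPM in 100Q and 436, 422 and 415 CPM in 0Q, with no overlap (-0.13, -0.28 to 0.028). HNRNPAB had 320.0, 343 and 280 CPM in 100Q and 371, 357 and 307 CPM in 0Q, and HNRNPF, which binds G-rich tracts, had 243, 260.2 and 237 CPM in 100Q and 287, 263 and 250 CPM in 0Q; both overlapped. The remaining 16 hnRNPs had log2 fold changes of -0.12 (HNRNPUL2-BSCL2) to 0.056 (HNRNPH1). Of these, HNRNPC, named here after its values were seen, lay apart, with 734, 753 and 746 CPM in 100Q and 766, 755 and 791 CPM in 0Q.

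In all, the groups did not overlap for 8 of the 46 genes, 3 with 100Q higher (HNRNPA1L2, CLK2 and SRPK2) and 5 with 100Q lower (SRSF12, SRSF8, TRA2B, HNRNPC and HNRNPUL1). This was 17.4%, beside 10.6% of all tested genes (5.39% with 100Q higher and 5.2% with 100Q lower) and 10.4% of those averaging 100 CPM or more. For HNRNPC the log2 fold change was -0.050 with an SE of 0.067, so lying apart did not mean a large difference.

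The hnRNPs were low together in a single 100Q library. In 100Q replicate 3, the library with the most counts, 17 of the 23 hnRNPs had their lowest CPM of the 6 libraries, beside 13.2% of all tested genes and 24.3% of tested genes averaging 100 CPM or more. Their median deviation from each gene's mean was -0.11 on the log2 scale in that library, against 0.034 and 0.039 in 100Q replicates 1 and 2 and -0.0078 to 0.016 in 0Q. Over genes averaging 100 CPM or more it was -0.021 in the same library. The SR proteins had a median deviation of 0.0062 there, with 3 of 12 genes at their lowest, and the difference between the families was not tested. The kinases had 0.14 in 100Q replicate 1 and -0.12 in 100Q replicate 2, where 4 of 6 were at their lowest. Without 100Q replicate 3 the median log2 fold change of the hnRNPs was 0.061, against -0.0054 with it. The median stayed negative when 100Q replicate 1 or 100Q replicate 2 was left out instead. Since 100Q replicate 3 was picked for its low hnRNP values, leaving it out was bound to raise the median. What sets that library apart was not tested.

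**Figure D5:**
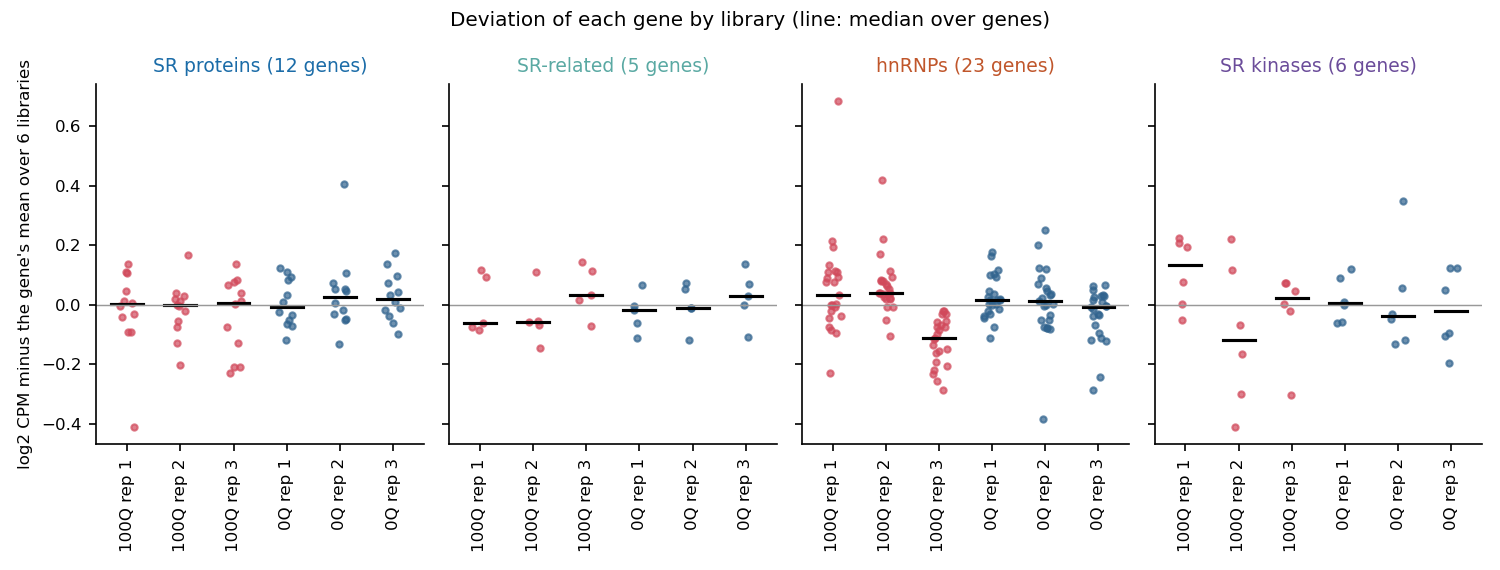
Each point is a gene's log2 CPM in a library minus its mean over the 6 libraries, by family, 100Q in red and 0Q in blue, with the median over genes as a line. The hnRNP points of 100Q replicate 3 lie mostly below 0 (median -0.11), and those of the SR proteins lie on both sides of it (median 0.0062).

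Fold changes were also set against codon content. Across the 46 genes the share of queuosine-decoded codons and the log2 fold change had a Spearman correlation of 0.14 and a Pearson correlation of 0.034. For the share of those codons ending in C the values were 0.062 and -0.030. These are descriptions across genes that share libraries and include paralogs.

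Reads of several of these genes could have been shared with copies. The annotation holds 138 pseudogenes named after 23 of the genes, 75 of them with counts. The 74 named after HNRNPA1 came to 3.30% of its counts in 100Q and 3.48% in 0Q, and the 16 named after HNRNPA3 to 1.46% in 100Q and 2.03% in 0Q. None of the other sets reached 1% in either group. HNRNPUL2-BSCL2, a readthrough gene that joins HNRNPUL2 to BSCL2, held 403, 248 and 640 counts in 100Q and 511, 611 and 467 counts in 0Q, 64.0% of the HNRNPUL2 counts in 100Q and 68.9% in 0Q. The split between them is uncertain. HNRNPA1L2 is overlapped on the same strand by a lncRNA (ENSG00000273784) with 22.2, 47.6 and 128 counts in 100Q and 70.1, 91.6 and 43.1 counts in 0Q, 72.9% of the HNRNPA1L2 counts. The lncRNA had its fewest counts in 100Q replicate 1, the library with the highest HNRNPA1L2 CPM, and the part of this overlap in the HNRNPA1L2 value was not tested. Of the 50 genes, 31 overlap another annotated gene, 13 of them one with over 10% of their counts. Other cases were, for SRSF9, DYNLL1 and GATC, for CLK3 EDC3, for SRPK2 KMT2E and for SON GART and DONSON. HCN3 had 22.7% of the CLK2 counts, CBX3 18.6% of those of HNRNPA2B1 and PHYKPL 13.6% of those of HNRNPAB. TGFB1 had 11.2% of the HNRNPUL1 counts, NFE2L2 11.1% of those of HNRNPA3 and RUFY2 10.3% of those of HNRNPH3. These cases all lie on the opposite strand, and the strand setting of the counting is not given in the sources used here.

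Other splicing genes were read from the same fit. None of 29 tested U1, U2 and Sm proteins, 35 proteins of the tri-snRNP and catalytic steps, 39 other splicing regulators, 25 further SR-related proteins and 19 further kinases, phosphatases and import factors passed (edgeR quasi-likelihood, Benjamini-Hochberg). Their median log2 fold changes were 0.014, -0.014, -0.023, 0.015 and 0.0096. At an unadjusted p under 0.05 with edgeR there were 2 of these genes, beside 4.72% of all tested genes. They were 1 of the 39 other splicing regulators and 1 of the 19 further kinases, phosphatases and import factors. The 39 hold MATR3 under 2 Ensembl identifiers. The developmental splicing regulator MBNL1 had 64.3, 54.5 and 78.8 CPM in 100Q and 77.8, 81.5 and 83.2 CPM in 0Q (log2 fold change -0.27 ± 0.12, SE), and 100Q replicate 3 lay within the 0Q range. GSK3B, a kinase that also acts on splicing factors, had 83.0, 89.4 and 90.7 CPM in 100Q and 68.5, 77.5 and 77.8 CPM in 0Q (0.23 ± 0.097), with no overlap. The other genes with the smallest p were U2AF1, which recognises the 3′ splice site, at 0.15 ± 0.078, SF3B6 at -0.15 ± 0.092, PRPF3 at 0.20 ± 0.12, SFSWAP at -0.17 ± 0.10, CCNL2 at 0.15 ± 0.078, RSRC1 at -0.21 ± 0.12 and DYRK1B at -0.24 ± 0.14 (SE).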

How the data were processed

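The table deposited by the authors holds estimated counts per Ensembl gene, as yet unnormalized. The submitters' processing notes name FastQC, STAR and RSEM without versions, and the series design gives hg38. The sources used here do not name the annotation or the strand setting. Counts were rounded and tested in R 4.3.3 with edgeR 4.0.16 (quasi-likelihood, TMM, filterByExpr with minimum count 10, Benjamini-Hochberg over 14905 genes). GENCODE release 44 gave symbols, coordinates and coding sequences and matched 62541 of 63086 identifiers; the other 545 held 0.129% of counts. Levels per length used the canonical transcript, and codon content stood in for protein features. The genes and lists were chosen with earlier results of these data known.

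Values in each library were given for the 3 genes with the smallest p in each direction and the 2 with the highest level, per family, and for any gene with an unadjusted p under 0.05; from each other splicing list the 2 genes with the smallest p were named, apart from a gene that is not reported here. Libraries of a group differed beyond sampling noise, with chi-square values of 5.36 to 14.2 per degree of freedom. Alternatives were RLE, library size only, no filter, a mean count of at least 50, a replicate block, DESeq2 1.42.0, limma-voom 3.58.1 and leaving out each library.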

Additional observations from a re-analysis of the deposited data

How the results depend on the processing

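No alternative called any of the 46 genes, and their lowest adjusted p over the 13 alternatives was 0.627 (CLK1, edgeR without a filter). Against 2 genes called in all, there were 71 with no filter, 1 with the stricter filter, 11 with DESeq2, 1 with limma-voom and 0 to 6 on leaving out a library. The replicate block called 3 genes and none of the 46. For pairing, each gene's deviation from its group mean in log2 CPM was correlated between same-numbered libraries, over genes averaging 10 CPM or more. These correlations of deviations were 0.0043, 0.015 and 0.25, so the numbers were not taken as pairs. Log2 fold changes changed sign in 51 of 598 values, over 21 genes, and the cause was not tested. They became 0.000753 for HNRNPK with RLE, 0.0111 for SON, 0.0127 for HNRNPH3, 0.0172 for HNRNPK, 0.0121 for HNRNPU and 0.0109 for HNRNPUL2 by library size only, 0.00033 for HNRNPH3 and 0.00526 for HNRNPK with the stricter filter, and -0.00411 for HNRNPD with limma-voom. Leaving out a library gave these ranges. SR proteins: SRSF10 -0.017 to 0.054, SRSF11 -0.0921 to 0.0575, SRSF6 -0.00558 to 0.112 and SRSF9 -0.00473 to 0.182. SR-related genes and kinases: SON -0.0577 to 0.0545, SRRM1 -0.0678 to 0.0537, TRA2A -0.0106 to 0.0755 and CLK4 -0.181 to 0.0334. The hnRNPs: HNRNPA0 -0.0417 to 0.0211, HNRNPA1L3 -0.285 to 0.0786, HNRNPA2B1 -0.00315 to 0.174, HNRNPD -0.0427 to 0.132, HNRNPDL -0.0262 to 0.064, HNRNPH2 -0.0168 to 0.0614, HNRNPH3 -0.0542 to 0.0708, HNRNPK -0.0368 to 0.034, HNRNPM -0.137 to 0.00281, HNRNPR -0.00709 to 0.0722, HNRNPU -0.0579 to 0.0213, HNRNPUL2 -0.121 to 0.1 and HNRNPUL2-BSCL2 -0.268 to 0.00536. SRSF12 rests on few counts, with 66, 68 and 168 in 100Q and 132, 178 and 137 in 0Q.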
